A study of Mus musculus with 14 samples.

Results

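The DHT effect on spinal cord RNA was set side by side in a female and a male cohort of mice with experimental autoimmune encephalomyelitis (EAE), gene by gene. For every autosomal gene, the mean log2 CPM of the vehicle libraries was subtracted from that of the DHT libraries within each cohort, and the male difference was then subtracted from the female difference. The result, called the cohort difference here, is positive where the female effect lies above the male effect and negative where it lies below. It was computed for 16030 autosomal genes of the 16703 genes in the table, which also holds 572 genes of chromosome X, 4 of chromosome Y, 13 mitochondrial genes and 84 genes that could not be placed. Log2 CPM is the logarithm to base 2 of a gene's reads scaled to a common library total, and every effect given here is a difference on that scale, in which 1 unit is a doubling.

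The 4 groups were C57Bl/6 mice, all gonadectomized (females ovariectomized, males castrated) and all immunized with a peptide of myelin oligodendrocyte glycoprotein in complete Freund's adjuvant. Vehicle or dihydrotestosterone (DHT), the androgen that aromatase does not turn into an estrogen, was given daily by the nose once neurological disability had begun, and the whole cord was extracted. The female cohort held 4 vehicle and 3 DHT libraries, and so did the male cohort. Females and males formed separate datasets that the authors joined, so sex, cohort and dataset cannot be told apart in the cohort difference, and mice without EAE are not analysed here. The libraries are numbered as in the table's columns, and the study's Methods describe separate animals.

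In EAE, T cells directed against myelin enter the cord with monocytes and neutrophils, and resident microglia and astrocytes respond. DHT acts through the androgen receptor, a nuclear receptor that binds DNA and sets transcription, and the receptor is made in several cell types of the cord. Astrocytes are the glia that clear glutamate and potassium, are joined by gap junctions and contact vessels, and they change their gene expression when the tissue is inflamed. In bulk RNA, fewer cells of a type and less RNA per cell cannot be told apart.

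In a pair of libraries Xist and the Y-linked genes departed from the labels. The library labelled male DHT 3 had Xist, the RNA of the inactive X chromosome, at 7.41 log2 CPM and the Y-linked genes Ddx3y, Eif2s3y, Kdm5d and Uty at −2.98, −2.98, −2.98 and −2.65, where the other male libraries had Ddx3y at 3.69 to 6.95. The library labelled female vehicle 3 had Xist at 3.04 and the same Y-linked genes at 0.18 to 0.78, where the other female vehicle libraries had Xist at 7.92 to 8.35. Whole numbers, called recovered reads here, could be obtained from the deposited values and summed to 29311155 to 35761972 per library. The authors had already normalized those values jointly, so the recovered reads need not be the reads as sequenced. Over 10958 genes with at least 200 reads in each library, 1 direction of variation among the libraries was missing. Of that direction 59.7% lay on the library labelled male DHT 3 and 26.7% on the one labelled female vehicle 3. Whether the joint normalization of the datasets, a sample swap or mixing lay behind the departures or the missing direction was not tested. All values contain both libraries unless stated, and the words "without both" give a value with these libraries left out. Hox genes of the cord lay between 4.32 and 4.97 log2 CPM on average over 20 genes in every library, while means of 9 skeletal muscle genes reached 2.02 in the male DHT group and were at most 0.21 in the other groups.

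Limma's moderated test called 300 of the 16030 autosomal genes (1.87%) at an adjusted p under 0.05, 84 with a positive cohort difference (0.524%) and 216 with a negative one (1.35%). The smallest adjusted p was 0.0262, so no gene passed 0.01. The fit counted 10 residual degrees of freedom although 1 direction of variation was missing from the values, so its p values may be too small. With that direction as a covariate limma called 0 genes, with a smallest adjusted p of 0.0604. Without adjustment, 4529 genes (28.3%) had p under 0.05, 1738 positive (10.8%) and 2791 negative (17.4%). The called differences were of modest size, with a median absolute value of 0.59 and a range of 0.30 to 2.68, and 296 of the 300 genes were protein-coding.

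Large differences and called differences were mostly not the same genes. Among all autosomal genes the median cohort difference was −0.02 with quartiles at −0.30 and 0.22, but the tails were unequal, since 1353 genes lay below −1 and 294 above 1. Of the genes beyond 1 in either direction 37 were called, and of the 415 genes below −2, 2. The median standard error was 1.0 for the genes beyond 2 in either direction and 0.11 for the called genes. The 4 called genes beyond 2, chosen here after their values were seen, were Treml4 (−2.68), Gm41611 (−2.47), Notum (2.28) and Rn7sk (2.18), each with a mean below 1 log2 CPM.

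The 300 calls did not outlast the removal of single libraries as a set. There were 0 calls in 8 of the 14 fits that left out 1 library (female vehicle 1 or 2, female DHT 1 or 2, male vehicle 1 or 4, male DHT 2 or 3), with 2958 to 4150 genes at an unadjusted p under 0.05, and leaving out female DHT 3 gave 4112 calls. Without the libraries labelled female vehicle 3 and male DHT 3 together there were 0 calls and 4672 genes at an unadjusted p under 0.05, with a smallest adjusted p of 0.0541. Each of the 300 genes kept its sign and an unadjusted p under 0.05 in all 14 fits. These genes were chosen for small p values in the full fit, which shares all but 1 library with each of the 14, so this is no separate support. With voom on the recovered reads, which come from the same normalized values, 416 genes were called, 299 of the 300 among them.

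**Figure D1:**
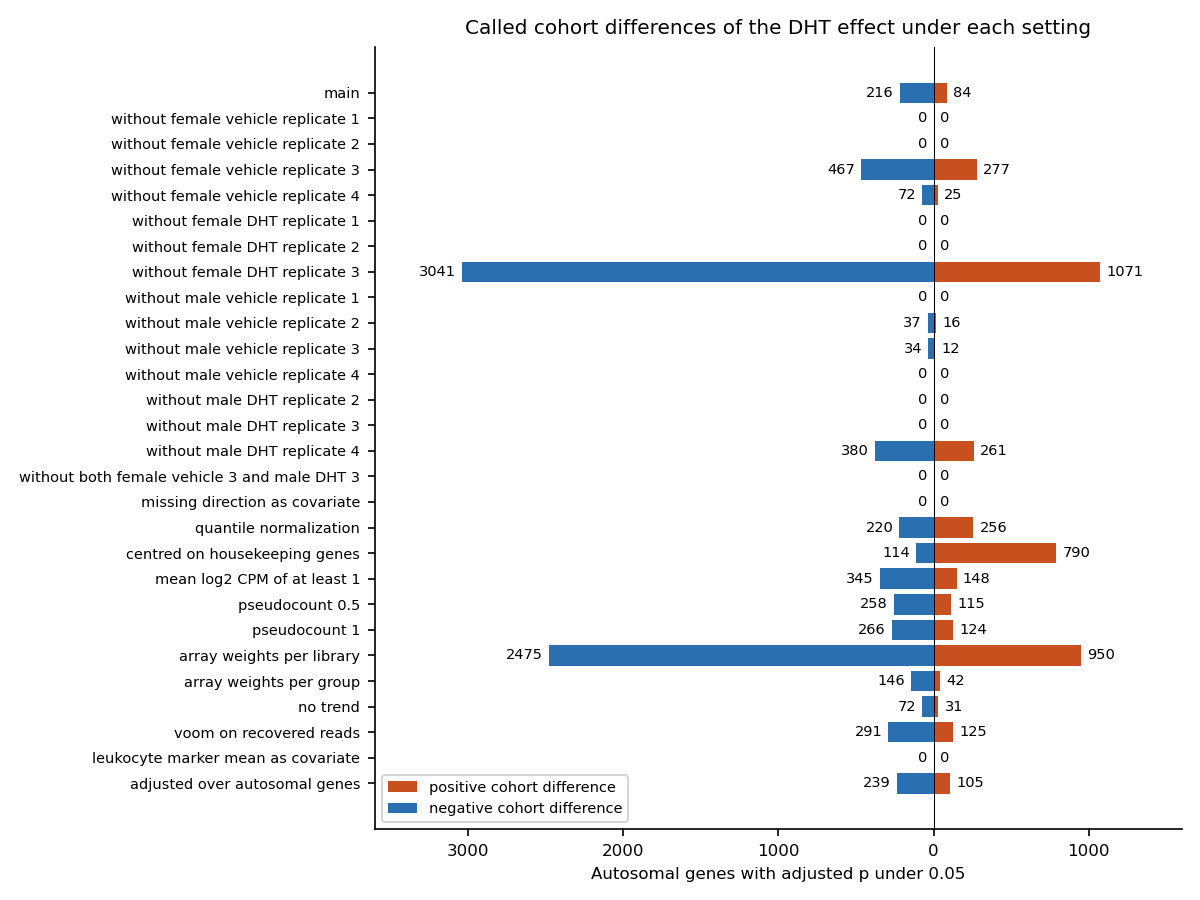
Number of autosomal genes called at an adjusted p under 0.05 under each setting (vertical axis), to the right for a positive and to the left for a negative cohort difference (horizontal axis, genes). The deposited values (main) give 84 and 216, and the bars range from 0 on both sides to 1071 and 3041 without female DHT 3.

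The split between positive and negative calls depended on the scaling. Positive genes made up 28.0% of the calls on the deposited values, 53.8% after quantile normalization (256 positive, 220 negative) and 87.4% after centring on 26 housekeeping genes (790 positive, 114 negative). The median over all autosomal genes was −0.02, 0.08 and 0.20 in these fits. The mean of the housekeeping genes was 6.95, 6.97 and 7.16 log2 CPM in the female DHT libraries and 7.19 to 7.30 in the other 11, and 2 of these genes, Ywhaz (−0.35) and Snrpd3 (−0.34), were negative calls. Each of the 300 genes had the same sign under both scalings.

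Each of the 300 called genes had a called effect in 1 cohort alone or called effects of opposite sign in both. Of the 216 negative calls, 65 fell in females and rose in males, 83 fell in females without a called effect in males, and 68 rose in males without a called effect in females. Of the 84 positive calls, 26 rose in females and fell in males, 39 fell in males alone and 19 rose in females alone. No gene that moved the same way in both cohorts had a called cohort difference, out of 1877 such genes, 42 of which had an unadjusted p under 0.05. In all, DHT raised 3136 autosomal genes in females (19.6%) and lowered 4431 (27.6%). In males it raised 1864 (11.6%) and lowered 1749 (10.9%). The female counts were 6254 raised and 2687 lowered after centring on housekeeping genes, which turned their balance. The male counts were 499 and 643 without the library labelled male DHT 3. These comparisons share the libraries of the cohort difference and describe how it is made up.

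An effect called in 1 cohort alone was seldom a called difference between the cohorts. Of 5588 genes called in females alone, 102 (1.83%) had a called cohort difference and 2657 (47.5%) an unadjusted p under 0.05. Of 1634 genes called in males alone, 107 (6.55%) had a called cohort difference and 907 (55.5%) an unadjusted p under 0.05. Of the 102 genes called in both cohorts in opposite directions, 91 (89.2%) had one.

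**Figure D2:**
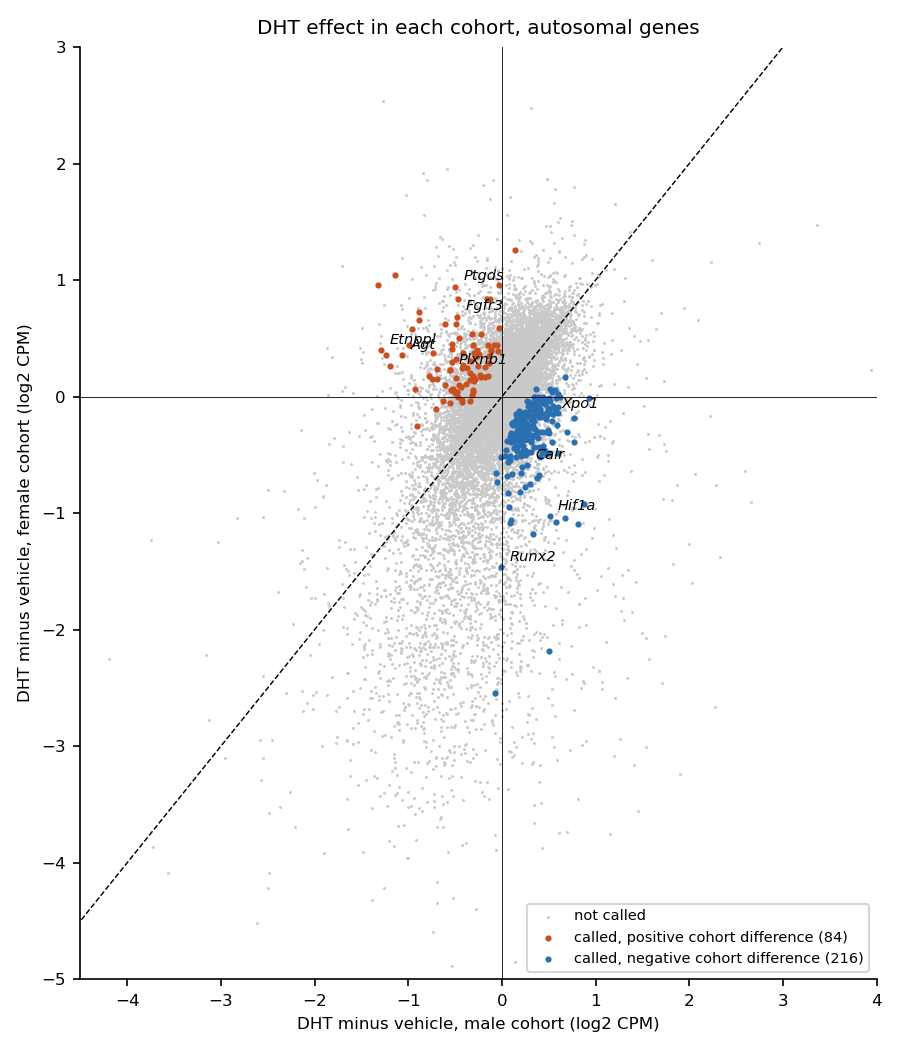
DHT effect of each autosomal gene in the male cohort (horizontal axis) and in the female cohort (vertical axis), both as the difference of mean log2 CPM, with equal effects on the dashed line. The 84 positive calls lie above the line, mostly where the male effect is negative, and the 216 negative calls lie below it.

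Genes of homeostatic astrocytes were among the largest positive calls. Of 16 measured genes that mark these cells at rest, 2 were called positive and none negative against 0.524% and 1.35% of all genes. Of the 16, 10 had a positive difference at an unadjusted p under 0.05 against 10.8%, and the list's median was 0.51 against −0.02 over all genes. The list's mean level was 8.18 to 8.40 log2 CPM in female vehicle, 8.47 to 8.57 in female DHT, 8.49 to 8.72 in male vehicle and 8.25 to 8.41 in male DHT libraries. In this mean the DHT libraries lay above the vehicle libraries in females and below them in males, with no overlap in either cohort. The single genes did not all follow the mean. Of the 16, DHT raised 7 and lowered 3 in females, against 19.6% and 27.6% of all genes. In males it raised 0 and lowered 4, against 11.6% and 10.9%. The cohort difference was positive for 13 of the genes and negative for 3. The median was 0.58 without both, 0.32 after quantile normalization and 0.73 after centring on housekeeping genes.

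Fgfr3 (GRCm38 chr5:33721674-33737068), a receptor for fibroblast growth factors that astrocytes carry, had log2 CPM levels of 6.91, 6.78, 6.86 and 6.59 in the female vehicle libraries, 7.62, 7.52 and 7.28 in the female DHT libraries, 7.54, 7.27, 7.34 and 7.50 in the male vehicle libraries, and 6.72, 6.89 and 7.18 in the male DHT libraries. All female DHT libraries exceeded all female vehicle libraries and all male DHT libraries were below all male vehicle libraries. The DHT effect was 0.69 (adjusted p = 0.00478) in females and −0.48 (adjusted p = 0.0159) in males, which gave a cohort difference of 1.17 (standard error 0.17, adjusted p = 0.0262, 1.18 without both). Agt (chr8:124556534-124569706), angiotensinogen, which astrocytes secrete in the central nervous system, had log2 CPM levels of 6.99, 6.70, 7.32 and 6.98 in the female vehicle libraries, 7.51, 7.32 and 7.22 in the female DHT libraries, 8.29, 7.62, 7.87 and 8.32 in the male vehicle libraries, and 6.86, 7.09 and 6.94 in the male DHT libraries. The male vehicle libraries stood above all 10 others, and the cohort difference was 1.42 (standard error 0.24, adjusted p = 0.0296, 1.59 without both) with a male effect of −1.06 (adjusted p = 0.00469) and a female effect of 0.35 (adjusted p = 0.108). The next genes of the list, Mlc1 (0.63, adjusted p = 0.0534), a membrane protein of astrocyte endfeet, and Gjb6 (0.80, adjusted p = 0.058), the gap junction protein connexin 30, were not called.

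Etnppl had the largest positive cohort difference among called genes with a mean of at least 2 log2 CPM. This enzyme, which breaks down phosphoethanolamine and is abundant in astrocytes (chr3:130617448-130637521), had log2 CPM levels of 5.04, 4.77, 4.85 and 5.41 in the female vehicle libraries, 5.39, 5.46 and 5.39 in the female DHT libraries, 6.57, 5.73, 6.53 and 6.66 in the male vehicle libraries, and 5.47, 4.83 and 4.95 in the male DHT libraries. The male vehicle libraries lay between 5.73 and 6.66 and every other library at 5.47 or below. The cohort difference was 1.68 (standard error 0.31, adjusted p = 0.0333, 1.5 without both), made up of −1.29 (adjusted p = 0.00536) in males and 0.40 (adjusted p = 0.16) in females. Prodh, the mitochondrial proline dehydrogenase, had a cohort difference of 1.43 (standard error 0.32, adjusted p = 0.0459, 1.46 without both) and Crb2, an apical polarity protein, of 1.60 (standard error 0.36, adjusted p = 0.0454, 1.78 without both).

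Plxnb1 (plexin B1, a receptor for semaphorin 4D) headed the positive calls by p. Its levels in log2 CPM were 7.11, 7.10, 7.18 and 6.99 in the female vehicle libraries, 7.35, 7.32 and 7.30 in the female DHT libraries, 7.59, 7.64, 7.54 and 7.69 in the male vehicle libraries, and 6.87, 7.12 and 7.19 in the male DHT libraries (chr9:109095389-109119917). The 3 female DHT libraries were above the 4 female vehicle libraries, and the 4 male vehicle libraries were above every other library. DHT effects of 0.23 (adjusted p = 0.023) in females and −0.55 (adjusted p = 0.00342) in males gave 0.78 (standard error 0.10, adjusted p = 0.0262, 0.84 without both). Adgrg1, the adhesion receptor GPR56, had log2 CPM levels of 6.80, 6.72, 6.80 and 6.79 in the female vehicle libraries, 6.75, 6.75 and 6.83 in the female DHT libraries, 7.25, 7.23, 7.14 and 7.25 in the male vehicle libraries, and 6.73, 6.73 and 6.78 in the male DHT libraries. Only the male vehicle group stood apart here, and the female effect was 0.00 (adjusted p = 0.979), the male effect −0.47 (adjusted p = 0.0025) and the cohort difference 0.47 (standard error 0.06, adjusted p = 0.0262, 0.47 without both).

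Ptgds and Ckb are abundant transcripts with positive calls. Ptgds, the prostaglandin D2 synthase of meninges and oligodendrocytes, had log2 CPM levels of 7.82, 7.41, 7.76 and 7.58 in the female vehicle libraries, 8.59, 8.64 and 8.52 in the female DHT libraries, 8.73, 8.43, 9.09 and 8.29 in the male vehicle libraries, and 8.32, 7.79 and 8.29 in the male DHT libraries. The female DHT libraries lay between 8.52 and 8.64 and the female vehicle libraries between 7.41 and 7.82, while the male groups overlapped, and the cohort difference was 1.44 (standard error 0.26, adjusted p = 0.0299, 1.31 without both). Ckb, the brain creatine kinase, had log2 CPM levels of 9.47, 9.45, 9.73 and 9.44 in the female vehicle libraries, 9.88, 9.82 and 9.75 in the female DHT libraries, 10.19, 10.22, 10.06 and 10.19 in the male vehicle libraries, and 9.44, 9.58 and 9.87 in the male DHT libraries. The male vehicle libraries were the highest, from 10.06 to 10.22, and the cohort difference was 0.83 (standard error 0.15, adjusted p = 0.0296, 0.88 without both). Ckb was the 1 called gene among 22 genes of glycolysis and creatine kinase (1.87% of all genes), whose median was −0.08 (0.14 after centring on housekeeping genes). Ldha (−1.23, adjusted p = 0.0982), the lactate dehydrogenase subunit of lactate production, and Ldhb (0.39, adjusted p = 0.0743), the subunit of lactate use, had differences of opposite sign, and neither was called, nor was the phosphofructokinase gene Pfkm (0.41, adjusted p = 0.0587).

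The other positive calls that the naming rule gives had cohort differences of at most 1.46. Gipr, the receptor for the incretin GIP, had 1.46 (adjusted p = 0.041), Carns1, the carnosine synthase of oligodendrocytes, 1.23 (adjusted p = 0.0392), Ltbp4, a matrix protein that binds latent TGF-beta, 1.31 (adjusted p = 0.0401), and Vstm4 1.12 (adjusted p = 0.0485). Hhatl had 1.11 (adjusted p = 0.0262) and Tns1, the focal adhesion protein tensin 1, 0.66 (adjusted p = 0.0262), both with effects called in each cohort in opposite directions.

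**Figure D3:**
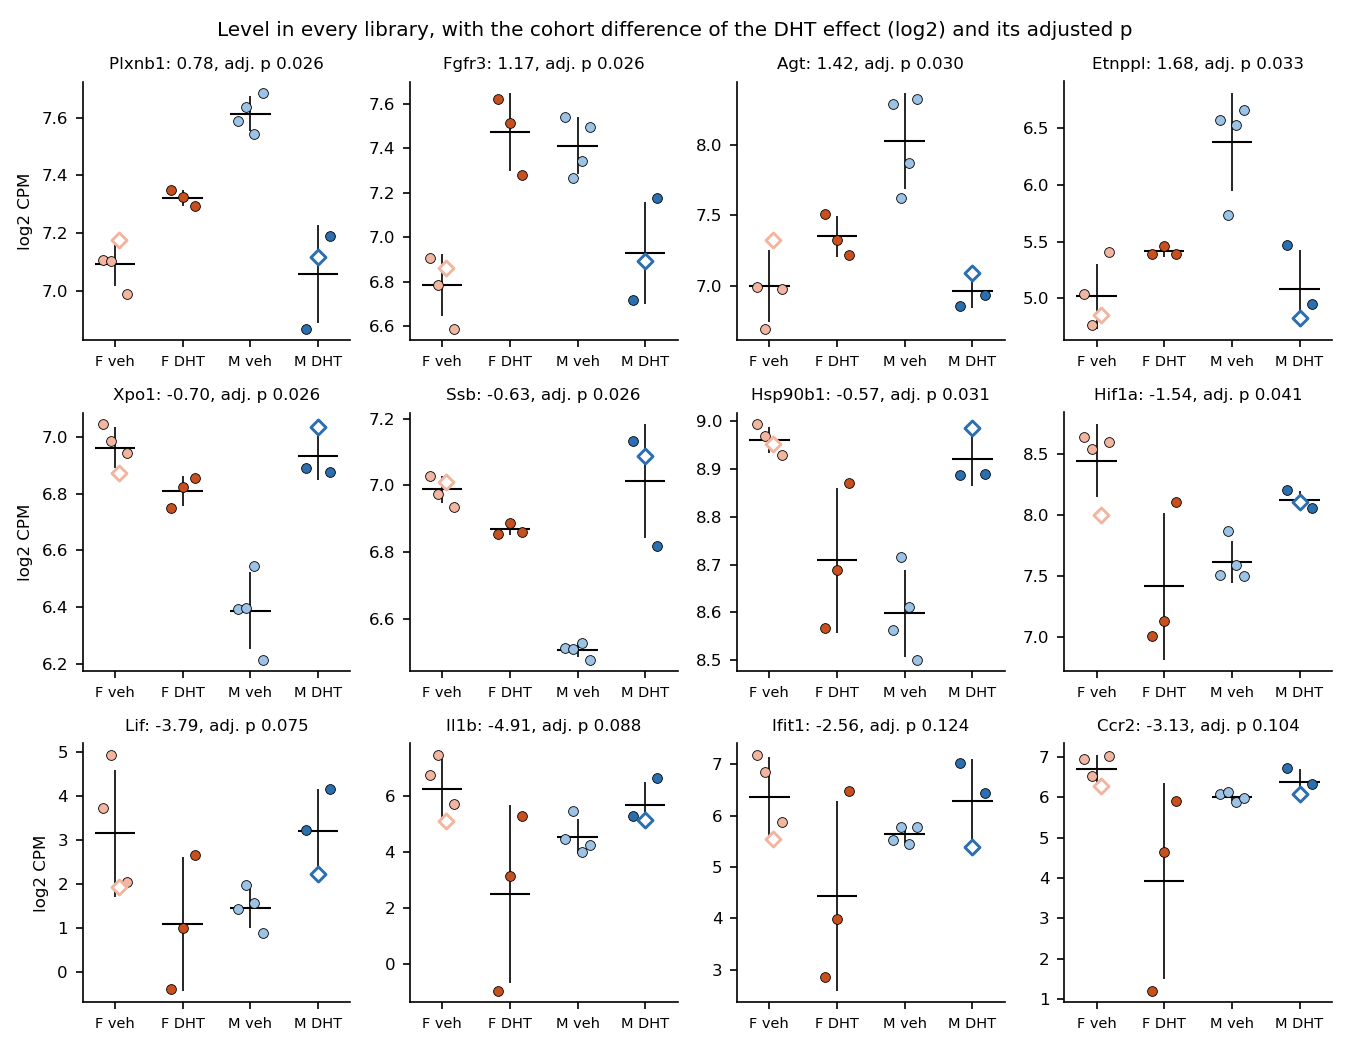
Log2 CPM of 12 genes in every library (vertical axis) by group (horizontal axis, F for female, M for male, veh for vehicle), with the group mean as a bar, the SD as a line, and open diamonds for the libraries labelled female vehicle 3 and male DHT 3. The male vehicle libraries are the highest for Plxnb1, Agt and Etnppl and the lowest for Xpo1 and Ssb, whereas in the lower row the 3 female DHT libraries are spread widely, from −0.95 to 5.28 for Il1b.

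Male vehicle was the group that stood apart most often among the called genes. All 4 male vehicle libraries lay outside the range of the 10 other libraries for 119 of the 300 called genes (39.7%), above it for 43 of the 84 positive calls and below it for 76 of the 216 negative calls, against 2034 of 16030 genes (12.7%) in all. The female DHT libraries lay outside for 30 called genes, against 15.0% of all genes, female vehicle for 6 and male DHT for 0. The gap between the cohorts was larger under vehicle than under DHT for 71 positive and 149 negative calls, 84.5% and 69.0%, against 42.1% of all genes. The median female minus male gap was −0.44 under vehicle and 0.22 under DHT for the positive calls, and 0.33 and −0.22 for the negative calls. Because the cohort difference is the gap under DHT minus the gap under vehicle, these counts describe its parts and test nothing.

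**Figure D4:**
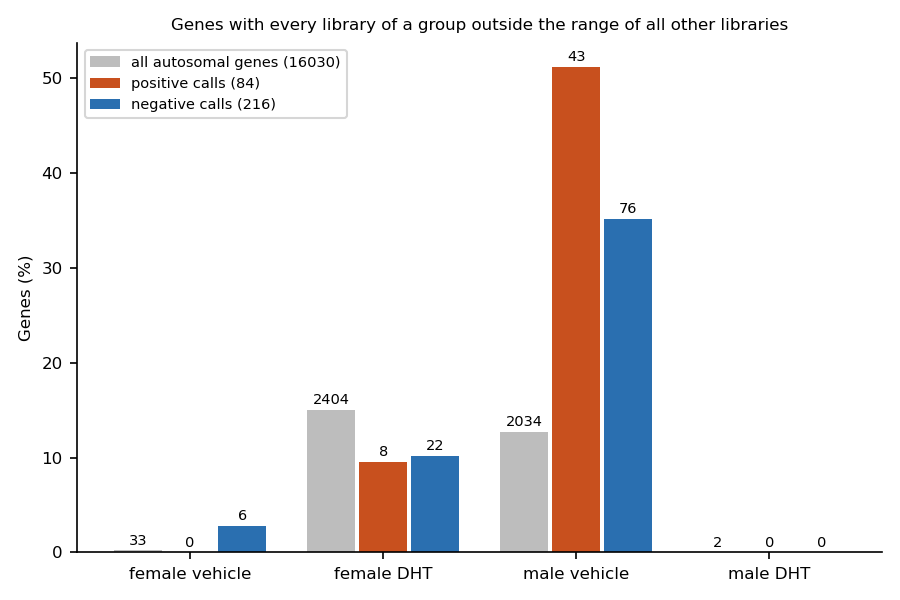
Share of genes (vertical axis, percent) for which every library of a group (horizontal axis) lay outside the range of all other libraries, for all autosomal genes and for the positive and negative calls, with the number of genes above each bar. Male vehicle has 43 of 84 and 76 of 216 called genes, against 2034 of 16030.

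Genes that handle RNA and protein were among the negative calls. Of 29 splicing factors, 7 were called negative and none positive against 1.35% and 0.524% of all genes. Of the 29, 19 had a negative difference at an unadjusted p under 0.05 against 17.4%, and the median was −0.28 (−0.27 without both). Of 33 proteasome subunits, 5 were called negative against 1.35% of all genes and 20 had an unadjusted p under 0.05 with a negative sign, with a median of −0.25 (−0.32 without both). After centring on housekeeping genes these medians were −0.07 and −0.03, with 1 call in each list, and their distance from the median of all genes in that fit was −0.26 and −0.23. With the mean of 56 leukocyte markers as a covariate, whose levels are given with the immune lists, the medians were −0.23 and −0.18.

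Among splicing factors, Hnrnpa1 (chr15:103240432-103246692), which binds exonic silencers, had log2 CPM levels of 8.33, 8.24, 8.12 and 8.32 in the female vehicle libraries, 7.83, 7.92 and 8.08 in the female DHT libraries, 7.96, 7.99, 7.96 and 7.92 in the male vehicle libraries, and 8.31, 8.17 and 8.17 in the male DHT libraries. The DHT libraries were below the vehicle libraries in females and above them in males without overlap, and the cohort difference was −0.57 (standard error 0.10, adjusted p = 0.0296, −0.64 without both) from effects of −0.31 (adjusted p = 0.00572) and 0.26 (adjusted p = 0.0214). Srsf3, a serine and arginine rich splicing factor, had log2 CPM levels of 7.30, 7.33, 7.21 and 7.25 in the female vehicle libraries, 6.96, 7.04 and 7.20 in the female DHT libraries, 6.90, 7.01, 6.69 and 6.88 in the male vehicle libraries, and 7.15, 7.29 and 7.21 in the male DHT libraries. Its cohort difference was −0.55 (standard error 0.11, adjusted p = 0.0333, −0.54 without both). Srsf1 had −0.45 (adjusted p = 0.0366) and Snrpd1, a core protein of the spliceosomal snRNPs, −0.64 (adjusted p = 0.0296). U2af1 (−0.39) and Snrpd3 (−0.34) were called as well.

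Psma4 (chr9:54950790-54958030), an alpha subunit of the 20S core, had log2 CPM levels of 6.58, 6.50, 6.39 and 6.60 in the female vehicle libraries, 5.85, 6.0 and 6.30 in the female DHT libraries, 6.31, 6.30, 6.25 and 6.28 in the male vehicle libraries, and 6.58, 6.39 and 6.36 in the male DHT libraries. All 3 female DHT libraries were below every female vehicle library, the female effect was −0.47 (adjusted p = 0.00478), and the cohort difference was −0.63 (standard error 0.13, adjusted p = 0.041, −0.70 without both). Psma3, a second alpha subunit, had −0.43 (adjusted p = 0.041), the ATPase Psmc6 −0.43 (adjusted p = 0.0418) and the deubiquitinase Psmd14 −0.38 (adjusted p = 0.0333), and Psmd7 was the fifth with −0.35.

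Other negative calls with small p values act in nuclear export, RNA binding and ubiquitin transfer. Xpo1 (chr11:23256041-23298249), the exportin that carries proteins and some RNAs out of the nucleus, had log2 CPM levels of 7.05, 6.99, 6.87 and 6.95 in the female vehicle libraries, 6.75, 6.82 and 6.86 in the female DHT libraries, 6.39, 6.40, 6.55 and 6.21 in the male vehicle libraries, and 6.89, 7.04 and 6.88 in the male DHT libraries. Every male vehicle library was below every other library, and the cohort difference was −0.70 (standard error 0.11, adjusted p = 0.0262, −0.68 without both), with a male effect of 0.55 (adjusted p = 0.00342) and a female effect of −0.15 (adjusted p = 0.108). Ssb, the La protein that protects the ends of new RNA polymerase III transcripts, had log2 CPM levels of 7.03, 6.97, 7.01 and 6.94 in the female vehicle libraries, 6.85, 6.89 and 6.86 in the female DHT libraries, 6.51, 6.51, 6.53 and 6.48 in the male vehicle libraries, and 7.13, 7.09 and 6.82 in the male DHT libraries. The male vehicle libraries spanned 6.48 to 6.53 and all others 6.82 to 7.13, with a cohort difference of −0.63 (standard error 0.09, adjusted p = 0.0262, −0.58 without both). Ube2d3, a ubiquitin-conjugating enzyme, had a cohort difference of −0.62 (standard error 0.09, adjusted p = 0.0262, −0.58 without both).

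Zfp800, a zinc finger protein, was the negative call with the smallest p. It had log2 CPM levels of 4.49, 4.39, 4.43 and 4.64 in the female vehicle libraries, 4.09, 4.14 and 4.29 in the female DHT libraries, 3.84, 3.99, 4.0 and 3.83 in the male vehicle libraries, and 4.39, 4.50 and 4.36 in the male DHT libraries (chr6:28239927-28398005). Female DHT libraries lay below female vehicle libraries and male DHT above male vehicle, both without overlap. The cohort difference was −0.81 (standard error 0.12, adjusted p = 0.0262, −0.79 without both). Stk3 (−0.67, adjusted p = 0.0262), a kinase of the Hippo pathway, Top1 (−0.53, adjusted p = 0.0262), DNA topoisomerase I, Ankrd49 (−0.79, adjusted p = 0.0262) and Lrrc8c (−0.69, adjusted p = 0.0262), a subunit of volume-regulated anion channels, also had effects called in each cohort with opposite signs.

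Genes of the unfolded protein response had negative cohort differences. This response raises chaperones of the endoplasmic reticulum when unfolded proteins build up there. Of 17 measured genes, 3 were called negative against 1.35% of all genes, and 16 had a negative difference at an unadjusted p under 0.05 against 17.4% of all genes, and the median was −0.75 (−0.87 without both, −0.74 after quantile normalization, −0.53 after centring on housekeeping genes, −0.47 with the leukocyte mean as a covariate). In females 12 of the 17 fell under DHT (27.6% of all genes) and none rose (19.6%), and in males 3 rose (11.6%) and none fell (10.9%). The mean level was 6.15 to 6.78 log2 CPM in female DHT against 6.82 to 7.02 in female vehicle libraries, and 6.80 to 6.95 in male DHT against 6.60 to 6.78 in male vehicle libraries.

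The promoters of the 3 called genes are shown because several genes of this list hold a known element there. RefSeq promoters (GRCm38.p6, 250 bases before to 50 after the start) were at hand for 14 of the 17 genes. The ER stress response element, CCAAT and CCACG with 9 bases between them, was the 1 motif searched, on both strands, and its fixed letters (or their complement) are in capitals.
Hsp90b1, minus strand, chr10:86705395-86705694: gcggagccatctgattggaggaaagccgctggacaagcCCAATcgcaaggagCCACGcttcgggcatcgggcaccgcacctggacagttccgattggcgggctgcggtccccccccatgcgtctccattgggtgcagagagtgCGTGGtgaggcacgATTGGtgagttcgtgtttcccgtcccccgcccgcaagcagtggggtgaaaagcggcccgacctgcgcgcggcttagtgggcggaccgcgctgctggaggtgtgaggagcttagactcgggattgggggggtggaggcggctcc
Calr, minus strand, chr8:84846882-84847181: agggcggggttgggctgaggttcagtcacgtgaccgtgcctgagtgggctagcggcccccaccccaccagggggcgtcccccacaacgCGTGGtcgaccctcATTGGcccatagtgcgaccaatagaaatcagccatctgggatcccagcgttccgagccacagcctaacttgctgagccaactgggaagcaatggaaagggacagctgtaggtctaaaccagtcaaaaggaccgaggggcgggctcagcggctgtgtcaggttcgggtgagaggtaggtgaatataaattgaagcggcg
Dnajb9, minus strand, chr12:44210019-44210318: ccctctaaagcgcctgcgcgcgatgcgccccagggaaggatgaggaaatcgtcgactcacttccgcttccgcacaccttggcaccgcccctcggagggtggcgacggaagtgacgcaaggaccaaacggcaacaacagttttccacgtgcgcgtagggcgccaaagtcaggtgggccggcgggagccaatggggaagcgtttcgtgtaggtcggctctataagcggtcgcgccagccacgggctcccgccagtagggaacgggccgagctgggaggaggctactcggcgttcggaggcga
The element was present in the promoters of 6 of the 14 genes and in those of 37 of the 27025 genes with a RefSeq promoter (0.137%). Hsp90b1 had 1 match on each strand, Calr had 1 on the opposite strand, and no match lay in the window of Dnajb9. The list was written from known genes of this response, so that count describes how the list was chosen. It does not bear on the cohort difference. A match is a stretch of letters and says nothing of binding in these cords.

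Hsp90b1 (chr10:86690209-86705509), the chaperone GRP94, had log2 CPM levels of 8.99, 8.97, 8.95 and 8.93 in the female vehicle libraries, 8.57, 8.69 and 8.87 in the female DHT libraries, 8.56, 8.72, 8.61 and 8.50 in the male vehicle libraries, and 8.89, 8.98 and 8.89 in the male DHT libraries. Female DHT libraries were below and male DHT libraries above their vehicle group, with effects of −0.25 (adjusted p = 0.0149) and 0.32 (adjusted p = 0.0118) and a cohort difference of −0.57 (standard error 0.10, adjusted p = 0.0305, −0.54 without both). Calr, the calcium-binding chaperone calreticulin, had log2 CPM levels of 9.36, 9.26, 9.21 and 9.38 in the female vehicle libraries, 8.40, 8.65 and 9.08 in the female DHT libraries, 8.98, 9.10, 8.86 and 8.91 in the male vehicle libraries, and 9.33, 9.19 and 9.17 in the male DHT libraries. The female groups did not overlap, the male DHT libraries exceeded the male vehicle libraries, and the cohort difference was −0.86 (standard error 0.18, adjusted p = 0.0404, −0.91 without both). Dnajb9, the co-chaperone ERdj4, had −0.44 (adjusted p = 0.0333) with a male effect of 0.41 (adjusted p = 0.00364) and a female effect of −0.03 (adjusted p = 0.679). Dnajb11 (−0.75, adjusted p = 0.0501), another co-chaperone, missed the threshold.

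Hif1a, the oxygen-regulated transcription factor subunit, had the most negative cohort difference among called genes with a mean of at least 2 log2 CPM. Its levels in log2 CPM were 8.64, 8.55, 8.0 and 8.60 in the female vehicle libraries, 7.01, 7.13 and 8.11 in the female DHT libraries, 7.51, 7.87, 7.59 and 7.50 in the male vehicle libraries, and 8.21, 8.11 and 8.06 in the male DHT libraries (chr12:73901375-73947530). Female DHT 3 at 8.11 lay within the range of the female vehicle group, where the library labelled female vehicle 3 was lowest at 8.0, and the 3 male DHT libraries were above the 4 male vehicle libraries. The cohort difference was −1.54 (standard error 0.32, adjusted p = 0.0406, −1.69 without both), from −1.03 (adjusted p = 0.0055) in females and 0.51 (adjusted p = 0.124) in males, and it ranged over −1.89 to −1.34 with single libraries left out. Runx2, a runt-family transcription factor, had log2 CPM levels of 3.83, 3.85, 3.57 and 3.99 in the female vehicle libraries, 2.04, 1.92 and 3.06 in the female DHT libraries, 3.37, 3.43, 3.14 and 3.59 in the male vehicle libraries, and 3.61, 3.33 and 3.17 in the male DHT libraries. The female DHT libraries lay below all others, the effects were −1.47 (adjusted p = 0.00478) in females and −0.01 (adjusted p = 0.982) in males, and the cohort difference was −1.46 (standard error 0.33, adjusted p = 0.0455, −1.56 without both).

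The other large negative calls included 7 genes that fell in females without a called effect in males. They were Lmnb1 (−1.51, adjusted p = 0.0491), lamin B1 of the nuclear lamina, Klf10 (−1.17, adjusted p = 0.0495), a factor induced by TGF-beta, Nabp1 (−1.16, adjusted p = 0.0454), a protein that binds single-stranded DNA, Ptpn2 (−1.07, adjusted p = 0.041) and Ptpn12 (−1.07, adjusted p = 0.0304), tyrosine phosphatases, Alpk1 (−1.03, adjusted p = 0.0485), a kinase that senses bacterial sugar metabolites, and Tmsb10 (−1.02, adjusted p = 0.0406), an actin-binding thymosin. Their female effects ran from −0.68 to −1.18. Ccne2, cyclin E2, differed from them with a male effect of 0.77 (adjusted p = 0.0114) and a female effect of −0.39 (adjusted p = 0.0826), a cohort difference of −1.15 (adjusted p = 0.041).

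Among lipid genes, calls of both signs were found. Of 9 genes of SREBP control and cholesterol uptake, 2 were called positive (0.524% of all genes), and the list's median was −0.01 (0.01 without both). Srebf1, the transcription factor SREBP-1 of fatty acid synthesis, had log2 CPM levels of 6.04, 5.98, 6.26 and 6.28 in the female vehicle libraries, 5.92, 5.77 and 5.97 in the female DHT libraries, 6.85, 6.76, 6.70 and 7.10 in the male vehicle libraries, and 5.95, 6.0 and 5.89 in the male DHT libraries (chr11:60199089-60222581). The male vehicle libraries lay above all others, the male effect was −0.91 (adjusted p = 0.0025) and the cohort difference was 0.65 (standard error 0.14, adjusted p = 0.0431, 0.72 without both). The female DHT libraries also lay below the female vehicle libraries, with 5.97 against 5.98 at the closest. The positive difference thus came with lower levels under DHT in both cohorts. Scap, the protein that escorts SREBPs to the Golgi, had log2 CPM levels of 6.24, 6.32, 6.23 and 6.32 in the female vehicle libraries, 6.28, 6.29 and 6.30 in the female DHT libraries, 6.56, 6.62, 6.58 and 6.57 in the male vehicle libraries, and 6.23, 6.23 and 6.32 in the male DHT libraries. Male vehicle again stood above every other library, with a cohort difference of 0.33 (standard error 0.06, adjusted p = 0.0333, 0.30 without both). Stard4, a cholesterol carrier, had a negative difference of −0.54 (adjusted p = 0.202) that was not called.

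Of 18 genes of cholesterol synthesis none was called by limma or by voom with BH adjustment over all genes, 10 had a negative difference at an unadjusted p under 0.05 (17.4% of all genes), and the median was −0.56 (−0.71 without both). After centring on housekeeping genes 0 of the 18 had an unadjusted p under 0.05, and the median was −0.34. Its distance from the median of all genes was −0.54 with and without centring. DHT raised 14 of the 18 in males (median effect 0.86, 11.6% of all genes) and 2 in females (median 0.33, 19.6% of all genes), and none fell. Hmgcs1, the first committed enzyme toward mevalonate, had log2 CPM levels of 9.22, 9.38, 8.48 and 8.33 in the female vehicle libraries, 9.33, 9.46 and 9.33 in the female DHT libraries, 7.53, 7.99, 8.06 and 7.15 in the male vehicle libraries, and 9.14, 9.10 and 9.02 in the male DHT libraries. The male DHT libraries exceeded all male vehicle libraries, but the female vehicle libraries spread over 8.33 to 9.38, and the cohort difference was −0.89 (standard error 0.36, adjusted p = 0.145, −1.01 without both) with a male effect of 1.41 (adjusted p = 0.00591). Idi1 had −1.07 (adjusted p = 0.14), Hsd17b7 −0.59 (adjusted p = 0.127) and Pmvk −0.46 (adjusted p = 0.144). A difference between the cohorts in this pathway was not shown by the test.

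Of 20 genes of sphingolipid and galactolipid synthesis, 3 were called negative (1.35% of all genes), and the list's median was −0.05 (0.17 after centring on housekeeping genes). Ugcg (chr4:59189257-59222833), which makes glucosylceramide, had log2 CPM levels of 6.34, 6.52, 6.41 and 6.47 in the female vehicle libraries, 6.46, 6.56 and 6.48 in the female DHT libraries, 5.93, 5.96, 6.03 and 5.96 in the male vehicle libraries, and 6.42, 6.55 and 6.47 in the male DHT libraries. Male vehicle lay below all other groups, the male effect was 0.51 (adjusted p = 0.0025) and the cohort difference was −0.45 (standard error 0.08, adjusted p = 0.0296, −0.42 without both). Cers2, the ceramide synthase of very long chains in myelin, had −0.31 (adjusted p = 0.0389), and Sptlc2, a subunit of the first enzyme of the path, −0.34 (adjusted p = 0.0459), while Degs2 had a positive difference that was not called (0.93, adjusted p = 0.0519). Of 13 genes of plasmalogen synthesis and peroxisomes 1 was called, Agps at −0.56, against 1.87% of all genes.

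**Figure D5:**
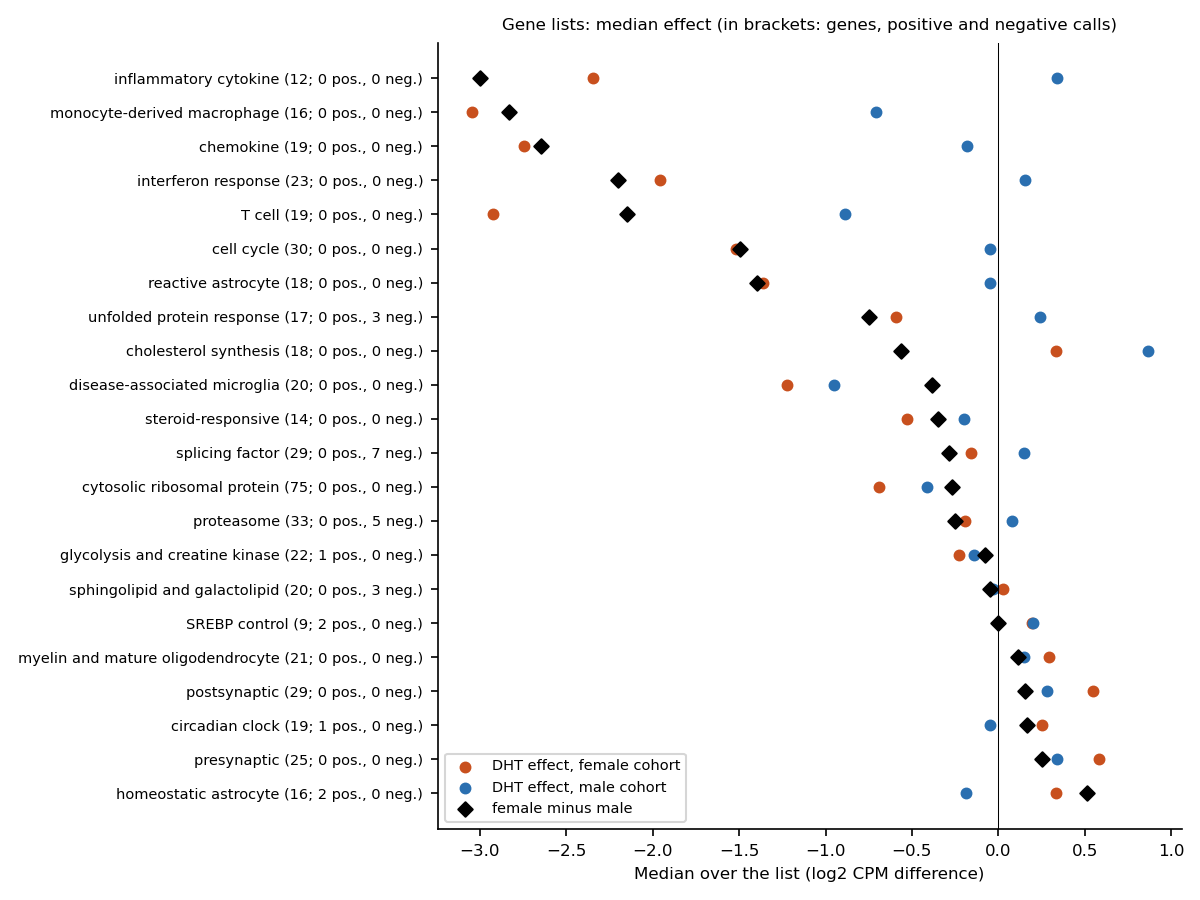
Median over each gene list (vertical axis, with the number of autosomal genes measured and the calls in brackets) of the DHT effect in females, in males and of the female minus male difference (horizontal axis, log2 CPM difference). Lists of immune cells and cytokines lie farthest from 0 with 0 calls, and the calls fall in lists whose medians lie between −0.75 and 0.51.

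Lists of immune genes had the most negative medians of the 22 lists described and no calls. Medians were −3.00 over 12 inflammatory cytokines, −2.83 over 16 genes of monocyte-derived macrophages, −2.65 over 19 chemokines, −2.20 over 23 interferon response genes and −2.15 over 19 T cell genes, each with 0 calls by limma and by voom. Without both they were −3.78, −3.29, −3.03, −2.79 and −2.55. At an unadjusted p under 0.05, the number with a negative difference was 9 of 12, 8 of 16, 9 of 19, 19 of 23 and 8 of 19 in the same order, against 17.4% of all genes. In females DHT lowered 9, 16, 14, 21 and 19 of these genes, and in males 0, 1, 0, 0 and 0, against 27.6% and 10.9% of all genes. That contrast of counts is not a test of the difference, and the test of the difference called none of them. The fit had 1 estimate of spread per gene for all 4 groups, so the wide female DHT spread also entered the male tests. The median male effects were 0.34, −0.71, −0.18, 0.15 and −0.89 in the order of the lists. The male counts therefore do not show that these genes stayed level in males.

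The spread among the female DHT libraries lay beside these large values. The mean of 56 markers of T cells, B cells, neutrophils and monocyte-derived macrophages was −0.93, 1.09 and 2.79 log2 CPM in female DHT 1, 2 and 3, where female vehicle libraries had 3.40 to 4.18, male vehicle 3.55 to 4.38 and male DHT 3.67, 2.90 and 3.11. With this mean as a covariate limma called 0 cohort differences and 2187 genes had an unadjusted p under 0.05. The medians of the 5 immune lists were then −1.22, −0.23, −0.12, −0.57 and −0.05, while that of homeostatic astrocytes was 0.46. The covariate is made of the T cell and macrophage genes themselves, among others, so medians near 0 for these lists follow from its making. Every female DHT library also lay below every other library in this mean. The covariate therefore overlaps with the female DHT effect, and fits with it cannot separate the 2. The part of leukocyte RNA in the other cohort differences was not tested further.

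Lif, a cytokine of the interleukin 6 family, had the smallest p among cytokines. It had log2 CPM levels of 3.73, 4.93, 1.93 and 2.04 in the female vehicle libraries, −0.37, 1.01 and 2.67 in the female DHT libraries, 1.43, 1.99, 1.57 and 0.88 in the male vehicle libraries, and 3.24, 2.23 and 4.16 in the male DHT libraries. The female groups overlapped, since female DHT 3 at 2.67 exceeded the libraries labelled female vehicle 3 and 4, whereas all male DHT libraries exceeded all male vehicle libraries. The cohort difference was −3.79 (standard error 1.12, adjusted p = 0.0749, −4.69 without both). Il1b, the inflammatory cytokine interleukin 1 beta, had log2 CPM levels of 6.75, 7.44, 5.08 and 5.71 in the female vehicle libraries, −0.95, 3.13 and 5.28 in the female DHT libraries, 4.45, 5.44, 4.01 and 4.24 in the male vehicle libraries, and 5.29, 5.14 and 6.63 in the male DHT libraries. The female DHT libraries ran from −0.95 to 5.28, the groups overlapped in both cohorts, and the cohort difference was −4.91 (standard error 1.55, adjusted p = 0.088, −5.57 without both). Csf2 (GM-CSF) had −2.86 (adjusted p = 0.0841) and Ifng −3.30 (adjusted p = 0.0921).

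Ccr2, the chemokine receptor of inflammatory monocytes, had log2 CPM levels of 6.95, 6.52, 6.28 and 7.01 in the female vehicle libraries, 1.20, 4.65 and 5.92 in the female DHT libraries, 6.07, 6.14, 5.89 and 5.98 in the male vehicle libraries, and 6.72, 6.09 and 6.34 in the male DHT libraries. Every female DHT library was below every female vehicle library, the male groups overlapped, and the cohort difference was −3.13 (standard error 1.08, adjusted p = 0.104, −3.42 without both). Thbs1 and Cd14, other genes of the monocyte-derived macrophage list, had −2.28 (adjusted p = 0.0736) and −2.72 (adjusted p = 0.1). Among chemokines, Cxcl2 had −5.01 (adjusted p = 0.0998), Ccl22 −2.75 (adjusted p = 0.108), Cxcl1 −3.23 (adjusted p = 0.113) and Ccl7 −3.80 (adjusted p = 0.121). Among T cell genes, Cd2 had −2.78 (adjusted p = 0.146), the checkpoint receptor Ctla4 −2.90 (adjusted p = 0.148) and Cd6 −2.58 (adjusted p = 0.15).

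Ifit1, an interferon-induced RNA-binding protein, had log2 CPM levels of 7.17, 6.84, 5.54 and 5.88 in the female vehicle libraries, 2.86, 3.99 and 6.47 in the female DHT libraries, 5.53, 5.77, 5.45 and 5.78 in the male vehicle libraries, and 7.01, 5.39 and 6.43 in the male DHT libraries. Female DHT 3 at 6.47 lay within the female vehicle range, and the male groups overlapped. Its cohort difference was −2.56 (standard error 0.97, adjusted p = 0.124, −3.28 without both). The other interferon response genes named by the rule were the RNA sensors Ddx58 (−1.69, adjusted p = 0.101) and Ifih1 (−1.69, adjusted p = 0.122) and the transcription factor Irf9 (−1.32, adjusted p = 0.126).

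All 30 cell cycle genes had a negative cohort difference, 26 of them with an unadjusted p under 0.05 (17.4% of all genes), and the median was −1.5 (−1.63 without both, −0.40 with the leukocyte mean as a covariate) with 0 calls by limma. Mcm4, a helicase subunit that unwinds DNA at replication forks, had log2 CPM levels of 5.04, 5.13, 4.69 and 4.95 in the female vehicle libraries, 4.13, 4.30 and 4.84 in the female DHT libraries, 4.44, 4.73, 4.43 and 4.52 in the male vehicle libraries, and 4.88, 4.75 and 4.90 in the male DHT libraries. The male DHT libraries exceeded every male vehicle library, and the cohort difference was −0.84 (standard error 0.21, adjusted p = 0.058, −0.98 without both). Pcna had −0.66 (adjusted p = 0.0743), Tpx2 −1.35 (adjusted p = 0.0898) and Plk1 −1.53 (adjusted p = 0.093).

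All 18 reactive astrocyte genes had a negative cohort difference, with a median of −1.40 (−1.71 without both, −0.26 with the leukocyte mean as a covariate), 10 at an unadjusted p under 0.05 (17.4% of all genes) and 0 calls by limma. Stat3, a transcription factor that reactive astrocytes use and immune cells also express, had log2 CPM levels of 8.22, 8.38, 7.71 and 8.04 in the female vehicle libraries, 6.54, 7.13 and 7.92 in the female DHT libraries, 7.67, 8.0, 7.75 and 7.73 in the male vehicle libraries, and 8.08, 7.71 and 8.15 in the male DHT libraries. The groups overlapped in both cohorts, and the cohort difference was −1.08 (standard error 0.36, adjusted p = 0.0984, −1.34 without both). Srgn (−3.13, adjusted p = 0.0735), Emp1 (−1.73, adjusted p = 0.0702) and Cd44 (−1.97, adjusted p = 0.0883) had larger differences, and leukocytes express Srgn and Cd44 as well.

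Over 20 genes of disease-associated microglia, DHT lowered 17 in females (median effect −1.22) and 9 in males (median −0.95), against 27.6% and 10.9% of all genes. The median cohort difference was −0.38 with 0 calls by limma, and the 5 genes at an unadjusted p under 0.05 were a smaller share than the 28.3% of all genes. That median turned to 0.36 with the leukocyte mean as a covariate. Without both, 6 of the 20 genes had an unadjusted p under 0.05, against 29.1% of all genes. Spp1 (osteopontin) had a cohort difference of −1.51 (adjusted p = 0.105), Csf1 −0.72 (adjusted p = 0.113), Cd9 −0.61 (adjusted p = 0.111) and Ank 0.53 (adjusted p = 0.0743).

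Of 25 presynaptic genes DHT raised 23 in females and 10 in males, and of 29 postsynaptic genes 26 and 13, against 19.6% and 11.6% of all genes. The median cohort differences were 0.25 and 0.15 (0.30 and 0.24 without both) with 0 calls by limma, and the 4 and 5 genes at an unadjusted p under 0.05 were smaller shares than the 28.3% of all genes. With the leukocyte mean as a covariate the postsynaptic median was −0.02. After centring on housekeeping genes the presynaptic and postsynaptic medians were 0.47 and 0.37. In that fit 10 genes of each list had an unadjusted p under 0.05, against 33.8% of all genes, and 1 presynaptic gene was called. The smaller shares thus depended on the scaling. The presynaptic genes of the naming rule were Syngr1 (0.51, adjusted p = 0.0535), Bsn (0.42, adjusted p = 0.15), Slc32a1 (0.43, adjusted p = 0.158), the vesicular transporter of GABA and glycine, and Rab3a (0.32, adjusted p = 0.167). The postsynaptic ones were the scaffold gene Homer1 (−0.42, adjusted p = 0.0901) and the receptor subunits Grin2c (1.14, adjusted p = 0.119), Grin1 (0.35, adjusted p = 0.139) and Gabrb1 (0.44, adjusted p = 0.14).

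None of the 21 genes in the list of myelin and mature oligodendrocytes was called by limma, and 4 had an unadjusted p under 0.05, a share below the 28.3% of all genes. The median was 0.11 (0.28 without both, 0.33 after centring on housekeeping genes). The count at an unadjusted p under 0.05 was 7 without both and 8 after centring, against 29.1% and 33.8% of all genes. The smaller share was thus not kept in these fits. DHT raised 7 of the 21 genes in females (19.6% of all genes) and 3 in males (11.6%) and lowered none, so the male count lay near that of all genes. Ermn, a cytoskeletal protein of myelinating cells, had −0.59 (adjusted p = 0.101), Trf (transferrin) −1.06 (adjusted p = 0.129) and Cldn11 (the tight junction protein of myelin) −0.83 (adjusted p = 0.119). The p values above the threshold do not show that the effects were equal.

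Of 75 ribosomal protein genes 73 fell in females and 45 in males, against 27.6% and 10.9% of all genes. None had a called cohort difference by limma, the median was −0.27, and the 9 genes at an unadjusted p under 0.05 were a smaller share than the 28.3% of all genes. The median was −0.29 without both, −0.05 after centring on housekeeping genes and 0.03 with the leukocyte mean as a covariate. The members with the smallest p were Rpl13a (−0.32, adjusted p = 0.0902), Rps26 (−0.57, adjusted p = 0.104), Rps24 (−0.44, adjusted p = 0.127) and Rpsa (−0.48, adjusted p = 0.144), and as genes with many processed pseudogenes they can lose or gain reads in the counting.

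The circadian list held 1 positive call among 19 genes (0.524% of all genes). Cry2, a repressor of the clock, had log2 CPM levels of 5.86, 5.97, 5.97 and 5.80 in the female vehicle libraries, 6.40, 6.20 and 6.15 in the female DHT libraries, 6.16, 6.18, 6.18 and 6.15 in the male vehicle libraries, and 6.01, 5.97 and 6.11 in the male DHT libraries. The female DHT libraries were above the female vehicle libraries and the male DHT libraries below the male vehicle libraries, without overlap, and the cohort difference was 0.49 (standard error 0.09, adjusted p = 0.0333, 0.48 without both). Tef (0.40, adjusted p = 0.057) and Per3 (0.73, adjusted p = 0.0612) had positive and Bhlhe40 (−1.18, adjusted p = 0.0566) a negative difference, not called.

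Genes known to respond to steroid receptors showed no called difference. Over 14 such genes the median was −0.35 (−0.73 without both) with 0 calls by limma and 2 genes at an unadjusted p under 0.05 (28.3% of all genes), and it was 0.12 with the leukocyte mean as a covariate. Without both, 5 of the 14 had an unadjusted p under 0.05 (29.1% of all genes). Nfkbia had −1.03 (adjusted p = 0.147), Arid5b −0.42 (adjusted p = 0.161), Dusp1 −0.82 (adjusted p = 0.222) and Cdkn1a −0.69 (adjusted p = 0.266). Several of these, Nfkbia among them, also respond to inflammatory signals.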

How the data were processed

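Whole spinal cord RNA of 14 libraries was sequenced. According to the Methods, the authors checked and trimmed reads (FastQC, fastp), mapped and counted them with DRAGEN on mm10, joined the female and male datasets on housekeeping genes (RUVSeq), normalized with edgeR and removed low genes. The deposited table gives log2 CPM per gene and library, and its columns of the authors' own comparisons (fold changes, p-values) were not used. Low values were whole multiples of 1 recovered read in 100% of cases within 0.05. The labels carry 1 replicate number throughout, so nothing pairs the libraries, and p-values measure the spread between libraries.

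Genes were placed by GENCODE M21 (GRCm38; 16375 genes) and RefSeq. A model of 4 group means was fitted to the log2 values in R 4.3.3 with lmFit of the package limma (3.58.1), the contrasts were tested by eBayes with a trend in the mean level, with no pseudocount or filter, and p was adjusted by the Benjamini-Hochberg method over all 16703 genes. On simulated data, 54% of cohort differences of 1 and 84% of those of 2 were recovered. The simulation used normal noise with the same spread in every group and put the differences on genes drawn at random. In the data the genes beyond 2 had a median standard error of 1.0, so these shares do not carry over to them. The 56 gene lists (22 described) and the rule for named genes were chosen with earlier results of these data known: among calls with a mean of at least 2 log2 CPM, the 10 largest of each sign (unnamed gene models passed over), the 10 smallest p, and the 5 smallest p of each sign among genes called oppositely in the cohorts, plus the 4 smallest p of each list. A few genes that the rule names are not reported here. No set test was run. Alternatives are in the closing section. Figures were drawn with matplotlib 3.10.9 in Python 3.11.15.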

Additional observations from a re-analysis of the deposited data

Results flagged for a closer look

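By limma's test of the difference itself, the DHT effect was called different between the cohorts for 50 of the 118 genes that the naming rule gives. Over all autosomal genes the share called was 1.87%. The rule picks called genes and the smallest p values of each list, so the count of 50 was set by the selection. The female effect lay above the male effect for Etnppl (1.68), Crb2 (1.60), Gipr (1.46), Ptgds (1.44), Prodh (1.43), Agt (1.42), Ltbp4 (1.31), Carns1 (1.23), Fgfr3 (1.17), Vstm4 (1.12), Hhatl (1.11), Ckb (0.83), Plxnb1 (0.78), Tns1 (0.66), Srebf1 (0.65), Cry2 (0.49), Adgrg1 (0.47) and Scap (0.33). It lay below for Hif1a (−1.54), Lmnb1 (−1.51), Runx2 (−1.46), Klf10 (−1.17), Nabp1 (−1.16), Ccne2 (−1.15), Ptpn2 (−1.07), Ptpn12 (−1.07), Alpk1 (−1.03), Tmsb10 (−1.02), Calr (−0.86), Zfp800 (−0.81), Ankrd49 (−0.79), Xpo1 (−0.70), Lrrc8c (−0.69), Stk3 (−0.67), Snrpd1 (−0.64), Psma4 (−0.63), Ssb (−0.63), Ube2d3 (−0.62), Hsp90b1 (−0.57), Hnrnpa1 (−0.57), Srsf3 (−0.55), Top1 (−0.53), Srsf1 (−0.45), Ugcg (−0.45), Dnajb9 (−0.44), Psma3 (−0.43), Psmc6 (−0.43), Psmd14 (−0.38), Sptlc2 (−0.34) and Cers2 (−0.31). All 50 were called on the deposited values and none was called with male DHT 3 left out.

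Within the vehicle groups of 4 libraries, 28 genes with every library given were searched for a library far from the 3 others, and 4 of 56 groups had one, where chance gives about 1 in 20. That rate is for independent groups, whereas these genes share libraries and were picked. The count of 4 is therefore not shown to exceed chance. Male vehicle 2 had Etnppl at 5.73, below the other male vehicle libraries. Female vehicle 2 had Adgrg1 at 6.72. Female vehicle 3, whose Xist and Y-linked genes depart from its label, had Ckb at 9.73 and Hif1a at 8.0, away from the other female vehicle libraries.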

How the results depend on the processing

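The 300 calls (84 positive, 216 negative) kept their sign under every alternative that tested them, but their number did not hold. The kept signs are no separate support, because the genes were chosen for small p values on the same libraries. With single libraries left out the positive calls ranged from 0 to 1071 and the negative calls from 0 to 3041. There were 0 positive and 0 negative calls without both libraries whose Xist and Y-linked genes depart from their labels. The same held with a covariate for the missing direction of variation (smallest adjusted p 0.0604). It also held with the leukocyte marker mean as a covariate and at an adjusted p under 0.01. Positive and negative calls numbered 662 and 1196 at an adjusted p under 0.1, 950 and 2475 with array weights per library, 42 and 146 with weights per group, 31 and 72 without a trend, 148 and 345 with a mean of at least 1 log2 CPM, 256 and 220 after quantile normalization, and 790 and 114 after centring on housekeeping genes. The fewer degrees of freedom of a smaller set of libraries were not separated from the libraries themselves.

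In females, genes raised and lowered by DHT ranged over 1537 to 3645 and 2673 to 4893 with single libraries left out, lowest without female DHT 1. They were 2028 and 2533 in the female cohort fitted alone, 4890 raised after quantile normalization, 6254 and 2687 after centring on housekeeping genes, and 0 and 0 with the leukocyte mean as a covariate. In males the ranges were 499 to 2205 raised and 643 to 2387 lowered, lowest without the library labelled male DHT 3. They were 470 and 565 without both of those libraries, 845 and 842 with the covariate for the missing direction, 2849 and 2927 with array weights per library, 2637 lowered with the cohort fitted alone, and 1153 raised after centring. The cause of these changes was not tested. No paired analysis was possible because all labels carry the same replicate number.

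Of the list medians, 30 of 594 alternative values moved by more than the list's median standard error.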

Other observations

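Several gene lists not described in the report also had a negative median cohort difference with 0 calls by limma. Medians were −2.11 over 10 genes of natural killer and cytotoxic cells (7 with an unadjusted p under 0.05, which 28.3% of all genes had), −1.61 over 14 neutrophil genes (5), −1.72 over 11 genes of MHC class I (2), −1.24 over 9 of MHC class II (0), −1.65 over 14 pattern recognition receptors (8) and −1.80 over 5 vascular adhesion genes (4). The mean of the neutrophil genes was −0.49 to 2.70 log2 CPM in the female DHT libraries and 2.83 to 4.95 in the other libraries. Immediate early genes had a median of −0.69 over 17 genes, 9 of which had a negative difference at an unadjusted p under 0.05. DHT lowered 9 and raised 1 of them in females and lowered 1 in males, where all genes had 27.6%, 19.6% and 10.9%.

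Voltage-gated channel genes had a median cohort difference of 0.31 over 20 genes, 19 of them positive and 7 with an unadjusted p under 0.05. DHT raised 18 in females and 4 in males (19.6% and 11.6% of all genes). Of 29 lysosomal genes 24 fell in females and 18 in males (27.6% and 10.9% of all genes), with a median cohort difference of −0.04. Steroid receptors and enzymes of androgen metabolism had a median of 0.07 over 9 genes, 1 of them with an unadjusted p under 0.05. None of these lists held a call by limma, and no explanation of any of them was tested.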
